A study of Mus musculus with 32 samples.

Results

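The enzymes of phase II metabolism attach a bulky or charged group to foreign and endogenous compounds so that they can be excreted. The members described here are the genes of 3 families of such enzymes, the glutathione transferases, the UDP-glucuronosyltransferases and the cytosolic sulfotransferases. They were chosen by symbol, as every gene whose annotated name starts with Gsta, Gstm, Gstp, Gstt, Gstk, Gsto, Ugt1, Ugt2 or Sult, and each was read from its brightest probe over all arrays. This gave 45 genes of the 16593 named on the array, carried by 63 of its 25697 probes. Their levels were measured on Illumina BeadChips in 4 organs (testis, spleen, liver, lung) of 7-week-old male mice of the NIH Swiss stock. The mice had received a single intravenous injection of 30, 60 or 90 mg/kg CBL0137 or of its vehicle, 5% dextrose, and organs were taken at 24 hours. CBL0137 binds DNA and thereby acts on the histone chaperone FACT, and the series set FACT positive beside FACT negative organs. With 2 arrays for every organ and dose, 32 arrays fell into 16 groups. Whether paired arrays came from different animals is not stated, so the p-values reflect only how far these arrays spread.

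Glutathione transferases join the tripeptide glutathione to electrophiles such as epoxides and lipid aldehydes. UDP-glucuronosyltransferases of the endoplasmic reticulum transfer glucuronic acid to phenols, bilirubin, steroids and drugs, and sulfotransferases of the cytosol transfer a sulfonate group to phenols, steroids and bile acids. The liver is the classical site of all 3 reactions, and many of these genes are known targets of the xenobiotic sensors AhR, CAR and PXR and of the oxidative stress factor Nrf2.

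Signals are the deposited intensities, of which 22.0% to 22.5% were negative on each array, and 54.8% to 55.6% of probes passed a detection threshold of 8.048 or 8.292. Changes are log2 differences ± SE after adding 16 to each signal, so that the change of a dim gene is understated, and a gene was tested if detected on at least 2 arrays of the fit. Paired arrays had a correlation between 0.9745 and 0.9912, and the number of arrays limits the precision. Some arrays held signal of another organ, given here as the median percent of the vehicle testis level over 67 testis-bright probes and of the vehicle liver level over 159 liver-bright probes. In spleen the testis level was 0.0168% to 1.15% on treated arrays against 2.74% and 5.75% on vehicle arrays, and in lung it was -0.0326% to 0.151% on treated arrays against 1.05% and 0.618% on vehicle arrays. The liver level in lung was 0.264% to 3.42% on treated arrays and 0.522% and 2.56% on vehicle arrays. In whole organs, fewer cells of a type and less RNA per cell cannot be told apart.

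Without drug, the members were mainly genes of the liver. Of the 45 members, 36 were detected on both vehicle arrays of the organ where they were highest, and that organ was the liver for 29, the testis for 4, the lung for 3 and the spleen for 0. Both liver arrays lay above the other 6 vehicle arrays for all 29 of these, 80.6% of the 36, while 21.3% of the 11807 genes detected on both vehicle arrays of an organ had that order. Of 37 members that could be fitted over the 8 vehicle arrays, 31 passed as higher in liver than in the mean of the other organs and 4 as lower (limma, Benjamini-Hochberg adjusted p under 0.05), where 28.2% of 12362 genes were called higher and 39.5% lower. The median log2 difference of the members was 2.89, against -0.17 over all genes. Sult1e1, the estrogen sulfotransferase, and Sult2a6 were detected on no array, and 7 more members (Sult1b1, Sult1c1, Sult3a1, Ugt2a1, Ugt2a2, Ugt2b37 and Ugt2b38) did not reach 2 arrays in any organ. These 9 genes enter no count of changes with dose inside an organ. Sult1b1, Sult3a1, Ugt2a2 and Ugt2b38 reached 2 arrays over all organs. They are among the 40 members of the contrasts between organs in the effect of 90 mg/kg. Ugt2a2 is also among the 37 above.

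**Figure D1:**
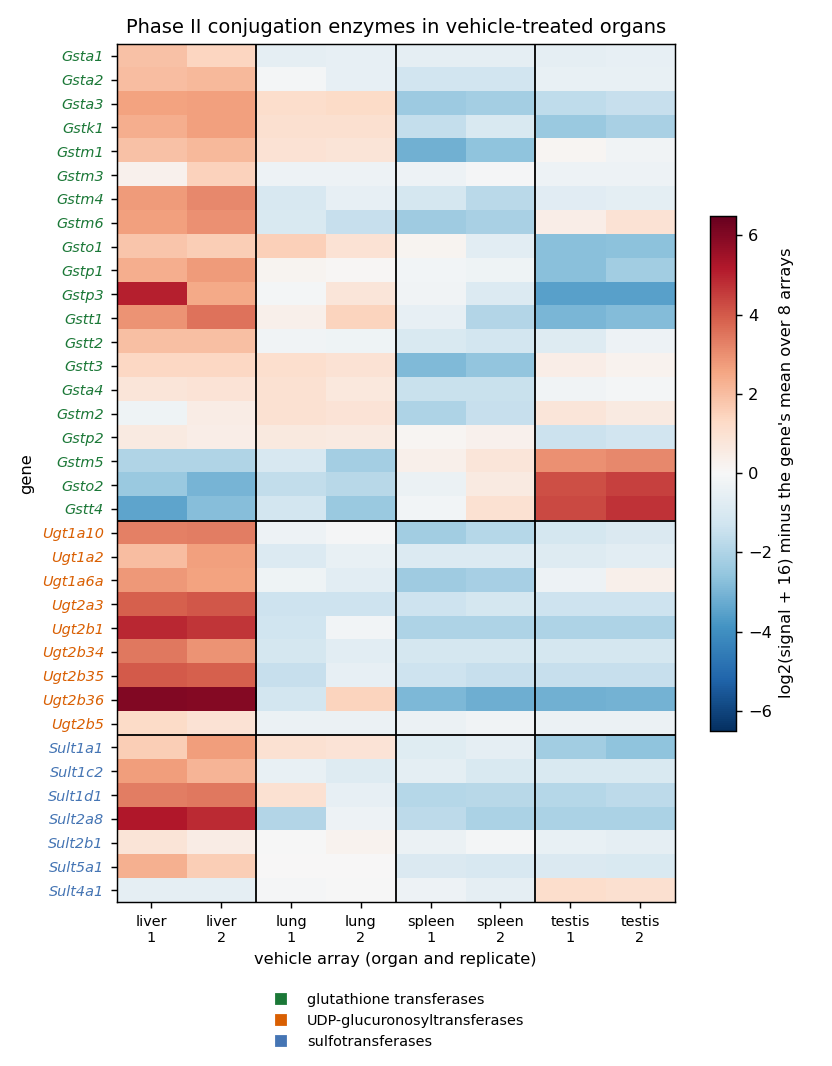
Each row is 1 of the 36 members detected on both vehicle arrays of its highest organ, each column 1 vehicle array, and the colour is log2(signal + 16) minus the gene's mean over the 8 arrays, from blue (low) to red (high). The liver columns are highest for 29 genes, and the testis columns for Gstm5, Gsto2, Gstt4 and Sult4a1.

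Among the UDP-glucuronosyltransferases, 9 of 13 were detected on both vehicle liver arrays, against 4 in lung, 2 in testis and 1 in spleen, and all 9 were highest in liver. The vehicle lung arrays held 0.522% and 2.56% of the liver level. The part of that signal in the lung detections of each family was not tested. Ugt2b36 gave 11180.8 and 10712.6 in vehicle liver and 59.5 and 449.9 in vehicle lung, and was below the threshold in vehicle testis and spleen, where its liver level was at least 455-fold higher. Such bounds set an undetected level at the lowest detected signal of its arrays. Ugt2b1, which glucuronidates steroids and drugs, averaged 1748.0 ± 199.8 in vehicle liver (SD, n = 2) and was at least 73.0-fold higher there than in testis or spleen. Ugt2a3, an enzyme with bile acid substrates, and Ugt2b34 were detected in vehicle liver and on no vehicle array of another organ, and their liver levels were at least 26.0-fold and 13.1-fold higher than in lung. Ugt1a10 was the UDP-glucuronosyltransferase found in all 4 organs, at 5685.8 ± 165.7 in liver, 491.8 ± 65.4 in lung, 263.4 ± 28.7 in testis and 123.6 ± 27.4 in spleen (SD, n = 2 each). Genes of the Ugt1 locus join their own first exon to last exons that they share, and the probe positions were not used here, so a probe named for one of them may read others.

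The glutathione transferases were the family found most widely. On both vehicle arrays, 19 of the 20 were detected in liver, 18 in lung, 17 in spleen and 15 in testis. Gsta3, the alpha class enzyme that protects the mouse liver from aflatoxin epoxide, averaged 14480.9 ± 428.4 in vehicle liver, 5278.0 ± 204.7 in lung, 770.3 ± 61.9 in testis and 460.8 ± 41.1 in spleen (SD, n = 2 each). Gstp1, the pi class enzyme, averaged 11331.2 ± 2227.0 in liver, 2058.1 ± 119.6 in lung, 1603.2 ± 85.6 in spleen and 323.2 ± 68.8 in testis. Gstm2, of the mu class, was highest in lung, at 6705.8 and 6277.9, with testis next at 5685.2 and 5003.8. Gsta4, which conjugates the lipid aldehyde 4-hydroxynonenal, reached 628.0 and 496.4 in lung and 534.1 and 577.2 in liver, and Gstp2 78.1 and 74.2 in lung and 74.9 and 67.7 in liver, so the order of these organs was within the spread for both genes. Gstp3 differed widely between its vehicle liver arrays, with 6277.9 and 1014.2 on the vehicle liver arrays. Transcripts of near-identical relatives (Gstp1 with Gstp2, Gsta1 with Gsta2, the mu class, the Ugt2b genes) may bind each other's probes, and their values are uncertain to that degree.

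Of the 12 sulfotransferases, 6 were detected on both vehicle liver arrays, 4 in lung, 3 in testis and 1 in spleen. Sult2a8, which sulfonates bile acids in mouse liver, averaged 2171.8 ± 335.9 in vehicle liver and was at least 90.2-fold higher than in testis or spleen. Sult1d1, which acts on catecholamines and phenols, averaged 593.3 ± 27.7 in liver and 62.6 ± 54.9 in lung, where its arrays gave 101.5 and 23.8. Sult4a1, known as a brain enzyme, was detected in vehicle testis alone, at 37.7 and 33.6, at least 2.14-fold higher than in each other organ.

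In liver, no member passed the test at any dose, and the same held for nearly all genes. At 90 mg/kg 0 of 35 members were called, as were 0% of 11494 genes, while 10 members and 1281 genes had an unadjusted p under 0.05. At 60 mg/kg and at 30 mg/kg the share of genes called was also 0% with 0 members, and for the dose trend, a slope per 30 mg/kg, it was 0.0087% with 0 members. The unadjusted p was under 0.05 for 2 members and 803 of the 11494 genes at 60 mg/kg. That held for 1 member and 557 genes at 30 mg/kg, and for 12 members and 1388 genes in the trend. The values below therefore describe these arrays. Both 90 mg/kg arrays lay above both vehicle arrays for 15 of 35 members (42.9%, against 20.4% of all genes), and below them for 9 (25.7%, against 20.6%). The median log2 difference of the 35 members at 90 mg/kg was 0.30, against -0.01 over all genes, and 0.17 when all probes of a gene were averaged. The members ran from -1.35 (Sult5a1) to 2.18 (Gsta1). At 60 mg/kg 9 members lay above and 8 below (18.9% and 18.3% of genes), and at 30 mg/kg 8 above and 4 below (18.6% and 18.3%), with medians of 0.00 and 0.04. The 2 arrays at 90 mg/kg held the highest of the 8 liver signals for 11 and 10 members, where 18.3% and 14.6% of all genes had their highest signal on them. All 6 treated liver arrays lay above both vehicle arrays for 3 members (8.57%, against 5.03% of genes). They lay below for 1 (2.86%, against 5.27%).

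By family in liver at 90 mg/kg, of 9 UDP-glucuronosyltransferases 5 lay above both vehicle arrays and 1 below, with a median of 0.35. Of 20 glutathione transferases 8 lay above and 4 below, with a median of 0.24. Of 6 sulfotransferases 2 lay above and 4 below, with a median of -0.51. Over all genes 20.4% lay above and 20.6% below. The difference between families was not tested.

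**Figure D2:**
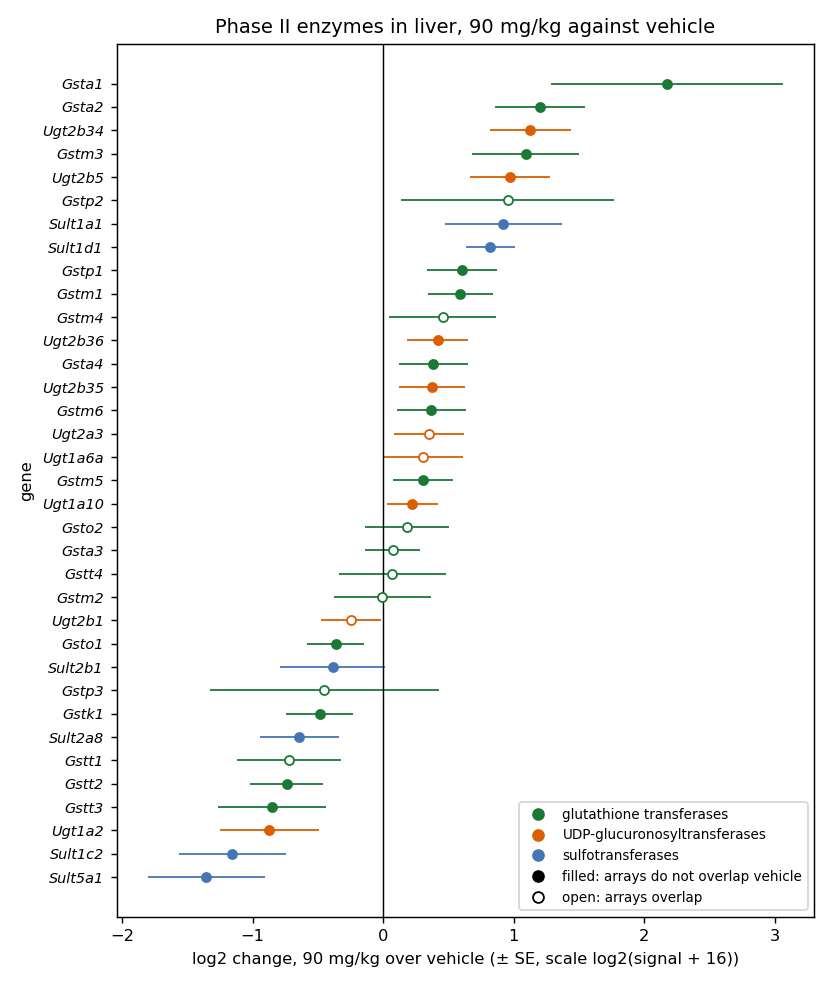
Each point is the log2 difference of 1 member in liver, 90 mg/kg over vehicle, with its SE, on the log2(signal + 16) scale. Colours give the enzyme family, and filled points are the 15 members above and the 9 below whose arrays did not overlap those of vehicle; Gsta1 has the highest value, 2.18, and Sult5a1 the lowest, -1.35.

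Gsta1 and Gsta2 are neighbouring alpha class genes on chromosome 9 and are known in the mouse as inducible enzymes. Gsta1 gave 72.7 and 47.5 in vehicle liver, 97.5 and 61.0 at 30 mg/kg, 302.3 and 140.5 at 60 mg/kg and 95.7 and 1012.1 at 90 mg/kg. Gsta2 gave 132.8 and 148.0, then 194.6 and 149.6, then 248.0 and 169.3, and 240.4 and 486.0 in the same order. For Gsta2 all 6 treated arrays lay above both vehicle arrays, for Gsta1 the arrays at 60 and 90 mg/kg did. The differences at 90 mg/kg were 2.18 ± 0.89 for Gsta1 (adjusted p = 0.424, limma) and 1.20 ± 0.35 for Gsta2 (adjusted p = 0.27). The second array at 90 mg/kg carried much of both: without it they were 0.57 and 0.72. That array also held the highest liver signal of Gstm1, Gstm3, Gstm4 and Gstp2, the last at 449.3 where the other 7 arrays gave 31.5 to 89.3, and of Nqo1, an Nrf2 target, at 115.3 against a median of 37.2 over the 8 liver arrays. Other Nrf2 targets were mixed on that array. Osgin1 was also highest of the 8 there, at 799.8, and Txnrd1 gave 67.5 where its highest was 69.4. Hmox1 was lowest of the 8 there, at 18.2, and Srxn1 gave 451.6 against a median of 449.6. Gclc and Gclm, which supply glutathione and are also Nrf2 targets, were highest on the first array at 90 mg/kg, at 121.8 and 1944.4.

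The bases before the starts of Gsta1 and Gsta2 are shown because the signals of these genes shared their highest array. They are the 250 bases upstream of 1 annotated start of each gene in RefSeq GRCm38.p6. The windows are chr9:78230419-78230668 on the plus strand for Gsta1 and chr9:78347146-78347395 on the minus strand for Gsta2. The annotated span of Gsta2 is chr9:78331018-78347192, so the 3′ end of its window lies inside the gene, and this is not the window of the outermost start. Sequences are written 5′ to 3′ with runs of at least 15 bases found in both windows in capitals.
Gsta1: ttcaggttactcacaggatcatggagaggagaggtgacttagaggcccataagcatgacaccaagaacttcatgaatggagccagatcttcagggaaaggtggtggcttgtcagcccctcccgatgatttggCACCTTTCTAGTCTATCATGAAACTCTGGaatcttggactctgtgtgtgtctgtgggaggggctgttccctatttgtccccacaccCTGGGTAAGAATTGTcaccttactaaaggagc
Gsta2: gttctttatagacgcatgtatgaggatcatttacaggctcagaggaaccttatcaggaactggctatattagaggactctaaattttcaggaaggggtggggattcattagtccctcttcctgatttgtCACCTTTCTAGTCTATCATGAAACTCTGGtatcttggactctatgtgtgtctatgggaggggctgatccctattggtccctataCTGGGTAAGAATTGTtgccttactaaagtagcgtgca
Aligned end to end, the windows matched at 190 of 266 columns, 71.4%. The core of the antioxidant response element, TGACNNNGC on either strand, was in neither window. It was found for 11.5% of 27025 genes, where a gene counted if any of its windows of this length held the motif. The core of the xenobiotic response element, GCGTG, was in the Gsta2 window and was found for 30.9% of genes. Over the 42 members with a window, TGACNNNGC was in 2 (Gsta3 and Gstm5) and GCGTG in 8. The cyclic AMP response element TGACGTCA was found for 0 of the 42 and for 1.77% of genes.

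Ugt2b34 and Ugt2b5, which glucuronidate steroids and drugs, had their highest liver signals at 90 mg/kg. Ugt2b34 gave 360.3 and 250.3 in vehicle liver, 284.3 and 340.5 at 30 mg/kg, 514.2 and 421.6 at 60 mg/kg and 892.5 and 511.8 at 90 mg/kg. Ugt2b5 gave 33.6 and 23.8, then 24.1 and 52.0, then 43.8 and 67.2, and 67.1 and 75.3. For both genes the arrays at 60 and 90 mg/kg lay above vehicle, and those at 30 mg/kg overlapped it. The differences at 90 mg/kg were 1.13 ± 0.31 for Ugt2b34 (adjusted p = 0.256, limma) and 0.97 ± 0.31 for Ugt2b5 (adjusted p = 0.301), and the slopes per 30 mg/kg were 0.40 ± 0.10 (adjusted p = 0.149) and 0.34 ± 0.09 (adjusted p = 0.17). The effect of 90 mg/kg in liver minus its mean effect in the other 3 organs was called for these 2 of 40 members, where 1.52% of 14308 genes were called. It was 1.12 ± 0.27 for Ugt2b34 (adjusted p = 0.0362) and 1.00 ± 0.22 for Ugt2b5 (adjusted p = 0.0251). Neither gene was detected on any array of testis, spleen or lung, so that contrast restates the liver change, which did not pass in liver alone, and does not show that the organs differ. Ugt1a2 lay below vehicle, with 69.3 and 60.9 at 90 mg/kg against 102.2 and 169.9 in vehicle liver (-0.87 ± 0.38, adjusted p = 0.45).

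Ugt1a6a, the phenol glucuronidating enzyme and a textbook AhR target, has 3 probes that did not give the same account in liver. The third and dimmest probe gave 65 and 40.9 with vehicle, 165 and 231.3 at 30 mg/kg, 270.2 and 385.1 at 60 mg/kg and 365.3 and 581.6 at 90 mg/kg. Each of the 6 treated arrays lay above both vehicle arrays. The brightest probe gave 606.8 and 526.2, then 694.2 and 822.3, then 507 and 790.2, and 555.7 and 888.3, with overlapping groups at 60 and 90 mg/kg. The second probe gave 1013.6 and 676.8 at 90 mg/kg against 409.6 and 503.8 with vehicle. With all probes tested apart, the difference at 90 mg/kg was 2.81 ± 0.33 for the third probe (adjusted p = 0.0546, limma over 16004 probes), 0.84 ± 0.27 for the second (adjusted p = 0.321) and 0.31 ± 0.31 for the brightest (adjusted p = 0.757). The slope of the third probe was 0.91 ± 0.13 per 30 mg/kg (adjusted p = 0.0534), so it missed the threshold in both fits, in which 0.0125% of probes were called. When all probes of a gene were averaged, Ugt1a6a was the 1 member called in the liver trend. The third probe was below the threshold on every testis and spleen array. Cyp1a1, another AhR target, was detected on none of the 8 liver arrays, and Cyp1a2 ranged from 4483.7 to 5584.9 over them. This probe was singled out after its values were seen.

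**Figure D3:**
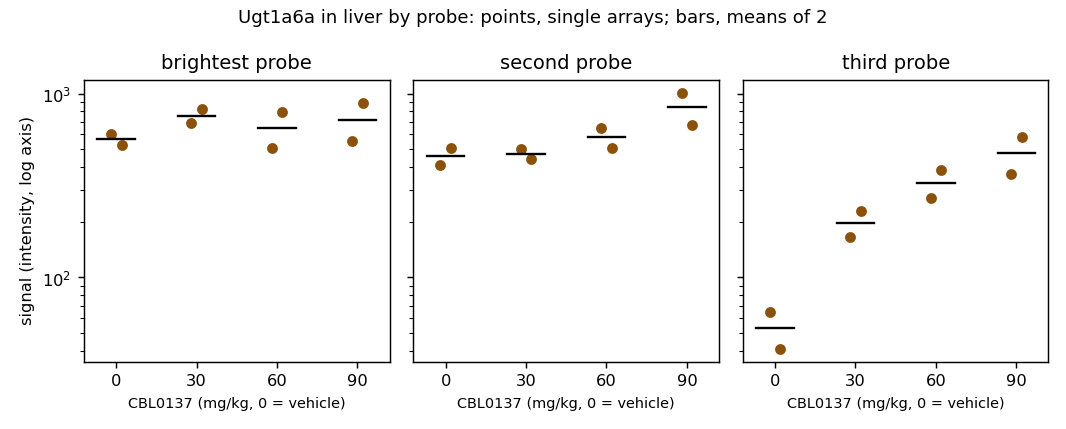
Signal of the 3 Ugt1a6a probes in liver on a log axis against the dose in mg/kg, with 0 for vehicle; points are single arrays and bars the mean of 2. The third probe is at 40.9 and 65 with vehicle and at 365.3 and 581.6 at 90 mg/kg, while the brightest probe overlaps between these groups.

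Among the other glutathione transferases of liver, Gstp1 gave 21294.3 and 13667.2 at 90 mg/kg against 9756.5 and 12906.0 with vehicle (0.60 ± 0.27, adjusted p = 0.454, limma), and all 6 treated arrays lay above vehicle. Gstm1 gave 6360.1 and 9480.9 against 4832.9 and 5490.1 (0.59 ± 0.25, adjusted p = 0.443). Gstm3 was dim, with 45.2 and 86.6 at 90 mg/kg against 8.4 and 40.7 with vehicle (1.09 ± 0.41, adjusted p = 0.376). In the theta class, whose Gstt1 acts on small halogenated compounds, Gstt2 gave 506.7 and 570.5 at 90 mg/kg against 916.9 and 900.6 with vehicle (-0.74 ± 0.28, adjusted p = 0.384), and its 6 treated arrays, from 386.7 to 692.7, all lay below vehicle. Gstt3 gave 557.3 and 935.7 against 1317.9 and 1317.1 (-0.85 ± 0.42, adjusted p = 0.499). Without the first array at 90 mg/kg the Gstp1 difference was 0.28, and without the first vehicle array that of Gstm3 was 0.48. A second probe of Gstm1 ran the other way, at -0.81 ± 0.44 (adjusted p = 0.558 over all probes). Gsta3, the brightest alpha class signal of liver, gave 13327.4 and 17387.8 against 14178.0 and 14783.8, with overlap. Its dimmer second probe gave 1956.6 and 1550.1 at 90 mg/kg against 929.5 and 953.2 with vehicle (0.88 ± 0.22, adjusted p = 0.236 over all probes), and on it all 6 treated arrays lay above vehicle, so the 2 probes of Gsta3 disagree. Gstt1 also overlapped, at 1333.9 and 577.5 against 1169.9 and 1818.5. Gstp3 gave 1978.1 and 1727.4 at 90 mg/kg, inside the wide range of its vehicle arrays.

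Of the sulfotransferases in liver, Sult1d1 gave 573.7 and 612.9 with vehicle, 787.4 and 773.7 at 30 mg/kg, 698.5 and 691.2 at 60 mg/kg and 1077.1 and 1043.3 at 90 mg/kg. All 6 treated arrays lay above vehicle, and the 90 mg/kg difference of 0.82 ± 0.19 had the smallest p of the members in liver at that dose (adjusted p = 0.209, limma). A second Sult1d1 probe gave -0.18 ± 0.26 (adjusted p = 0.841 over all probes), so its probes disagree at 90 mg/kg. Sult5a1 gave 88.4 and 36.8 at 90 mg/kg against 223.8 and 134.1 with vehicle (-1.35 ± 0.45, adjusted p = 0.325). Its second probe gave 32.1 and 24.5 against 97.7 and 99.8, a difference of -1.38 ± 0.32 (adjusted p = 0.208 over all probes). Sult1c2, which acts on phenols, gave 79.9 and 48.4 against 190.1 and 132.5 (-1.16 ± 0.41, adjusted p = 0.357). Sult2a8 gave 1814.5 and 1045.8 against 2409.3 and 1934.3 (-0.64 ± 0.30, adjusted p = 0.481).

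Sult1a1, the main phenol sulfotransferase of many tissues, was the 1 member that passed as higher with CBL0137, in spleen. In spleen it gave 286.9 and 337.2 with vehicle, 545.7 and 478.8 at 30 mg/kg, 520.4 and 587.1 at 60 mg/kg and 601.3 and 779.4 at 90 mg/kg. All 6 treated spleen arrays lay above both vehicle arrays, as they did for 3 of 22 members (13.6%) and for 14.4% of 11023 genes. At 90 mg/kg the difference was 1.10 ± 0.20 on the log2 scale, 2.14-fold (adjusted p = 0.0366, limma), and the slope was 0.34 ± 0.07 per 30 mg/kg (adjusted p = 0.0308). The differences at 60 and 30 mg/kg were 0.80 ± 0.20 and 0.69 ± 0.20 (adjusted p = 0.0702 and 0.16). The call at 90 mg/kg was lost when any 1 of the 8 spleen arrays was left out, with differences between 0.92 and 1.28. In spleen 2 of 22 members were called at 90 mg/kg, 1 higher and 1 lower, where 4.29% of 11023 genes were called, 2.1% higher and 2.19% lower. At 60 mg/kg 0 members were called, where 1.91% of genes were called, 0.753% higher and 1.15% lower. An unadjusted p under 0.05 was found there for 9 of 22 members and 2362 of 11023 genes. At 30 mg/kg 2 members were called, both lower, where 3.15% of genes were called, 0.154% higher and 2.99% lower. In the trend 1 member was called higher, where 5.21% of genes were called, 3.52% higher and 1.69% lower.

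In lung Sult1a1 did not pass the test. It gave 1018.4 and 961.6 in vehicle lung, 1797.9 and 1435.5 at 30 mg/kg, 2057.8 and 2059.9 at 60 mg/kg and 1530.3 and 3219.8 at 90 mg/kg. All 6 treated lung arrays lay above vehicle, as they did for 3.63% of 11293 genes. The difference at 90 mg/kg was 1.15 ± 0.33 (adjusted p = 0.231, limma), and 0.62 without the second array at that dose. In liver both arrays at 30 and at 90 mg/kg lay above vehicle, with 4025.6 and 4868.5 at 90 mg/kg against 1563.0 and 3467.3 with vehicle (0.92 ± 0.45, adjusted p = 0.501). In testis the arrays overlapped, at 84.4 and 77.8 against 91.1 and 70.3 (0.01 ± 0.21, adjusted p = 0.987). With the testis share subtracted the spleen difference of Sult1a1 was 1.11 ± 0.20 (adjusted p = 0.0373). The sum of 9 macrophage markers was higher in the same spleens, at 14964 to 24177 on treated against 12110 to 13656 on vehicle arrays. Vcam1 was the brightest of them, averaging 7608.3 with vehicle and 9606.5 at 90 mg/kg. Cd163 averaged 52.8 at 60 mg/kg against 62.8 with vehicle, and Adgre1 393.9 at 30 mg/kg against 424.6. The sum of the erythroid markers was lower, at 22177 to 37617 on treated against 38764 to 51131 on vehicle arrays. Sptb of that list went the other way, averaging 115.4 at 90 mg/kg against 44.8 with vehicle. The part of these cells in the change of Sult1a1 was not tested.

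**Figure D4:**
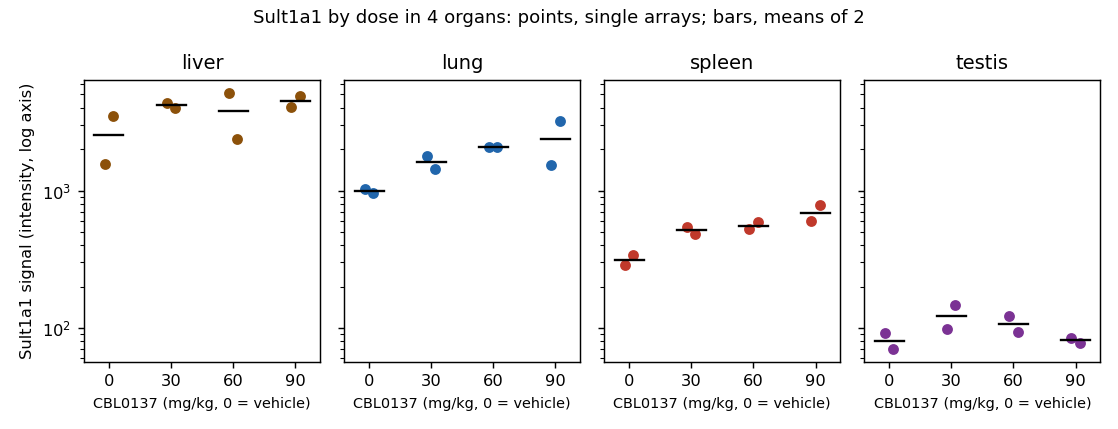
Sult1a1 signal on a log axis against the dose in mg/kg, with 0 for vehicle, in 4 organs; points are single arrays and bars the mean of 2. In spleen and lung all 6 treated arrays lie above both vehicle arrays, in liver those at 30 and 90 mg/kg do, and in testis the arrays at 90 mg/kg, 84.4 and 77.8, overlap vehicle.

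For Sult1a1, as the member that rose, the 250 bases upstream of 1 annotated start are written 5′ to 3′. They are at chr7:126676419-126676668 on the minus strand of RefSeq GRCm38.p6. This window lies inside the annotated span of the gene, chr7:126672865-126690443, so it is not that of the outermost start.
Sult1a1: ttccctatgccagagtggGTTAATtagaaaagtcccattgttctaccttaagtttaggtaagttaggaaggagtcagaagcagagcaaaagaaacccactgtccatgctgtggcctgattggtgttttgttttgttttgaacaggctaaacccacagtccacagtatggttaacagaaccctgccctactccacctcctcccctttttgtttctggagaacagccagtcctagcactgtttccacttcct
The capitals mark GTTAAT, the core of the site of the hepatocyte factor HNF1, found on either strand for 7 of the 42 members and 7.49% of all genes. The full HNF1 site, which holds this core, was found for 3 members (Sult1d1, Sult2a6 and Ugt1a10) and 0.44% of all genes. The core was added after the full site had been searched. None of the other 3 motifs named above was in this window.

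Gsto2, Gstt4 and Gstm5 are the glutathione transferases that were highest in testis, and in spleen and lung they lay below their vehicle levels on every treated array, as did the testis signal of those arrays. Gstm5, a mu class enzyme known from sperm and brain, averaged 11309.0 ± 939.7 in vehicle testis, Gsto2, the omega class enzyme that reduces dehydroascorbate, 4135.4 ± 458.0, and Gstt4 5602.0 ± 1138.5 (SD, n = 2 each). All 3 passed as higher in vehicle testis than in the other organs, by 4.04 ± 0.29, 5.77 ± 0.28 and 5.98 ± 0.40 on the log2 scale (adjusted p = 3.58e-06, 5.23e-07 and 2.57e-06, limma). In that contrast 32 of 37 members were called, 7 higher and 25 lower, where 72.8% of genes were called, 30.7% higher and 42.1% lower. For spleen 27 were called lower and 0 higher (28.4% and 26.3% of genes), and for lung 10 higher and 16 lower (28.3% and 30.5%).

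In spleen, Gsto2 gave 58.7 and 34.6 at 90 mg/kg against 140.3 and 293.6 with vehicle, and fell by 1.84 ± 0.38 (adjusted p = 0.0442, limma). At 30 mg/kg it gave 25.5 and 27.7 and fell by 2.37 ± 0.38 (adjusted p = 0.0363), and Gstt4 gave 0.7 and 24.1 against 207.2 and 482.4 and fell by 3.69 ± 0.61 (adjusted p = 0.0363). Gstm5 gave 609.0 and 278.2 at 90 mg/kg against 1702.3 and 2342.1 with vehicle (-2.23 ± 0.54, adjusted p = 0.0558). All 6 treated spleen arrays lay below vehicle for each of the 3 genes (13.6% of the 22 members, against 9.25% of genes). As a percent of vehicle testis, Gsto2 was at 3.39% and 7.1% on the vehicle spleen arrays and Gstt4 at 3.7% and 8.61%, where the 67 testis-bright probes gave 2.74% and 5.75%. Gstm5 was further above them, at 15.1% and 20.7%. Spermatid genes themselves differed widely in this. Prm1 averaged 10315.7 in vehicle spleen and 19132.8 in vehicle testis, Ldhc 6173.6 and 21178.8, Odf1 1687.2 and 19991.7, and Pgk2 715.9 and 11746.6. The subtraction used 1 median share for each array, and how well that share holds for Gstm5 was not tested. The 18 spermatid markers had a summed signal of 689 to 10858 on treated against 23537 to 44689 on vehicle spleen arrays, all 18 of them detected on both vehicle arrays. With the testis share subtracted, the difference of Gsto2 at 90 mg/kg was -0.72 ± 0.37 (adjusted p = 0.298), that of Gstt4 -2.19 ± 0.45 (adjusted p = 0.0488) and that of Gstm5 -2.08 ± 0.47 (adjusted p = 0.0607). At 30 mg/kg no member was then called, with Gstt4 at -2.79 ± 0.45 (adjusted p = 0.0654). Without the second vehicle array, or without either array at 30 mg/kg, no member was called at 30 mg/kg, and at 90 mg/kg Gsto2 lost its call without any 1 of the 8 arrays.

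Lung showed the same 3 genes below vehicle. Gstt4 gave -9.6 and -8.1 at 90 mg/kg against 93.3 and 30.4 with vehicle and was below the threshold on every treated array, at least 2.95-fold lower. Gsto2 gave 13.9 and 9.6 against 51.1 and 43.4 (-1.19 ± 0.34, adjusted p = 0.231, limma), and Gstm5 147.4 and 126.7 against 664.8 and 285.3 (-1.57 ± 0.42, adjusted p = 0.192). The spermatid sum in lung was 202 to 1823 on treated and 5887 to 9068 on vehicle arrays. With the testis share subtracted the 3 differences were -0.83 for Gstt4, -0.11 for Gsto2 and -1.27 for Gstm5. In testis itself, Gsto2 gave 4234.7 and 4078.2 at 90 mg/kg against 3811.6 and 4459.3 with vehicle, and Gstt4 and Gstm5 overlapped vehicle as well.

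**Figure D5:**
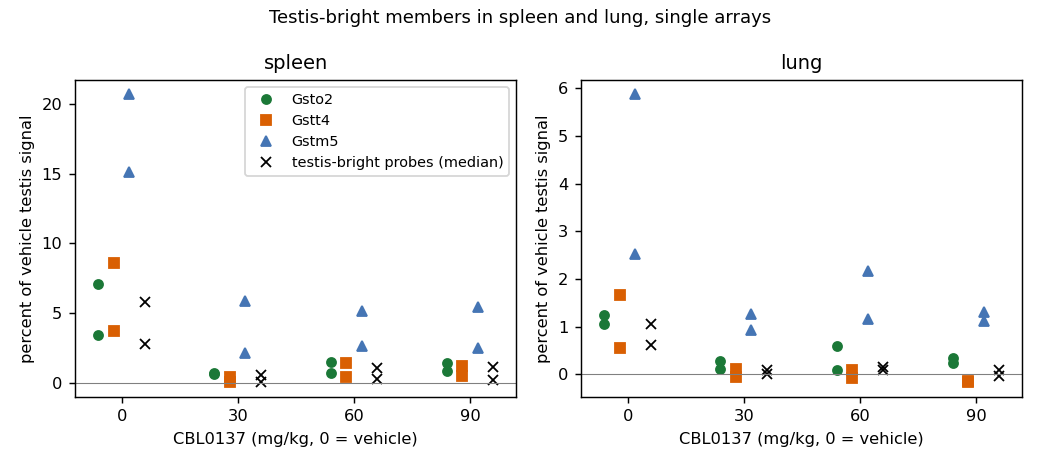
Signal of Gsto2, Gstt4 and Gstm5 on single spleen and lung arrays as a percent of their mean in vehicle testis, against the dose in mg/kg with 0 for vehicle. Crosses are the median percent of 67 testis-bright probes, which is 2.74% and 5.75% on the vehicle spleen arrays and at most 1.15% on treated ones, and Gsto2 and Gstt4 lie near the crosses while Gstm5 lies above them.

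The upstream window of Gstm5 is shown as that of the brightest testis member, at chr3:107895604-107895853 on the plus strand of RefSeq GRCm38.p6.
Gstm5: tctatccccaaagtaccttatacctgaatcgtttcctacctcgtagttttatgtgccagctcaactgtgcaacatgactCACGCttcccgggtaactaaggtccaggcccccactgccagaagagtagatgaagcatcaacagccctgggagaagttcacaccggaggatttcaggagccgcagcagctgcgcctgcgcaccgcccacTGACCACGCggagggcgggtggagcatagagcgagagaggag
The capitals mark 1 match to TGACNNNGC and 2 to GCGTG, read on the other strand as CACGC, of which 1 lies within the TGACNNNGC match.

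Before the testis share was subtracted, other glutathione transferases of spleen differed less. Gsta3 gave 674.2 and 726.5 at 90 mg/kg against 431.7 and 489.8 with vehicle (0.59 ± 0.24, adjusted p = 0.169, limma), and its 6 treated arrays lay above vehicle. Gstm1 gave 272.8 and 242.1 against 133.5 and 190.3 (0.64 ± 0.25, adjusted p = 0.155), and Gstm4 34.3 and 48.0 against 25.8 and 11.6 (0.74 ± 0.25, adjusted p = 0.119). With the testis share subtracted, Gstm1 was at 1.08 ± 0.23 (adjusted p = 0.0522), Gstm4 at 0.82 ± 0.27 (adjusted p = 0.13) and Gsta3 at 0.68 ± 0.24 (adjusted p = 0.145). Gstp1, at 1508.8 and 605.0 against 1663.8 and 1542.7, and Gstp3, at 58.9 and 79.5 against 144.2 and 84.5, lay below vehicle (adjusted p = 0.366 and 0.2). Ugt1a10 gave 180.0 and 187.8 against 104.2 and 143.0 (0.53 ± 0.27, adjusted p = 0.263), and all 6 of its treated arrays lay above vehicle. Over the 22 members tested, 5 lay above and 6 below vehicle at 90 mg/kg (22.7% and 27.3%), against 32.3% and 21.5% of all genes. The median difference was 0.09, against 0.08 over all genes. The effect in spleen minus the mean effect in the other organs at 90 mg/kg was called for 2 of 40 members, where 4.71% of genes were called: Gsto2 at -1.51 ± 0.39 (adjusted p = 0.0306) and Gstm5 at -1.78 ± 0.48 (adjusted p = 0.0353). With the testis share subtracted these were -0.75 ± 0.40 (adjusted p = 0.359) and -1.73 ± 0.45 (adjusted p = 0.0336). Whether the median share holds for Gstm5 was not tested.

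In lung, 0 of 28 members were called at each dose and in the trend. Of 11293 genes 0% were called at 90, 60 and 30 mg/kg and 0.0354% in the trend (0.0266% higher and 0.00886% lower). At 90 mg/kg 5 members and 1302 genes had an unadjusted p under 0.05. Gstk1, a mitochondrial and peroxisomal enzyme, gave 2145.0 and 2331.7 at 90 mg/kg against 1845.1 and 1812.3 with vehicle (0.29 ± 0.18, adjusted p = 0.628, limma), and its 6 treated arrays lay above vehicle. Gstt3 gave 772.8 and 921.5 against 1076.4 and 985.9, with its 6 treated arrays below vehicle. Of the 28 members 5 lay above and 7 below vehicle at 90 mg/kg, against 20.8% and 24% of genes, and the median difference was -0.02. With all 6 treated arrays, 2 members lay above vehicle and 4 below (7.14% and 14.3%), against 3.63% and 6.18% of genes. Ugt2b36 gave 829.9 and 26.7 at 90 mg/kg and 59.5 and 449.9 with vehicle, and its 2 low arrays were the 2 with the lowest liver level, 0.264% and 0.522%. Ugt2b1 gave 7.3 and 1.3 against 10.7 and 41.6 and was at least 1.63-fold lower at 90 mg/kg, and with the liver share subtracted its difference was -0.07 ± 0.15. The part of the liver signal in the vehicle levels of these genes in lung was not tested.

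In testis, 0 of 25 members were called at any dose or in the trend, with 0.00932% of 10732 genes called at 90 mg/kg and 0% at 60 and 30 mg/kg and in the trend. At 90 mg/kg 4 members had an unadjusted p under 0.05, all of them higher, as did 811 genes, of which 409 were higher. Gstp1 gave 561.1 and 527.8 against 274.6 and 371.9 (0.74 ± 0.26, adjusted p = 0.648, limma), and Ugt1a10 392.6 and 343.6 against 243.1 and 283.7 (0.46 ± 0.16, adjusted p = 0.648). Gsta4 gave 311.3 and 395.6 against 257.1 and 276.5, and Gstm6 321.8 and 340.5 against 211.6 and 302.4, and for both all 6 treated arrays lay above vehicle. Sult4a1 gave 70.5 and 47.0 against 37.7 and 33.6 (0.52 ± 0.24, adjusted p = 0.649). Of the 25 members 8 lay above vehicle at 90 mg/kg (32%, against 18.7% of genes) and 0 below (19.2% of genes). With all 6 treated arrays, 3 members lay above vehicle (12%, against 5.63% of genes) and 0 below (5.81% of genes).

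Genes that supply, extend or control these enzymes were read from 8 lists. At 90 mg/kg the 8 tested genes of other glutathione-linked enzymes in spleen had 1 called lower and 1 called higher, where 4.29% of all genes were called. Mgst3, a microsomal glutathione transferase, averaged 180 at 90 mg/kg against 3079 with vehicle and fell by 3.90 ± 0.44 (adjusted p = 0.0112, limma), in the spleens whose erythroid markers were lower. Ptges, a prostaglandin E synthase, averaged 72.7 against 25.5 and rose by 1.07 ± 0.22 (adjusted p = 0.0426). Of 11 tested targets of the xenobiotic and stress sensors in spleen, Cyp1b1 was the 1 called, at 937.2 against 395.5 (1.20 ± 0.26, adjusted p = 0.0484). No gene of the other 6 lists was called in spleen at 90 mg/kg, and none of the 8 lists in testis, liver or lung. Among uncalled genes, Acot1, an acyl-CoA thioesterase, averaged 405.8 at 90 mg/kg against 1267 with vehicle in liver (-1.69 ± 0.37, adjusted p = 0.196), and Chac1, which degrades glutathione, 499.8 against 126.5 in lung (1.82 ± 0.30, adjusted p = 0.0952).

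In the spleen dose trend, where 5.21% of all genes were called, the genes of these lists that passed came from 5 lists, and 0 passed in the trends of testis, liver and lung. They are named because so few of each list passed, after their values were seen. Of the other glutathione-linked enzymes 2 of 8 rose, Mgst1, a microsomal glutathione transferase, by 0.36 ± 0.08 for each 30 mg/kg (adjusted p = 0.0404, limma), and Ptges, and Mgst3 fell. Of 6 carrier genes 2 rose, Abcc5, a conjugate exporter, by 0.23 ± 0.05 and Slco2b1, an organic anion carrier, by 0.26 ± 0.06 (adjusted p = 0.0335 and 0.0476). Ggt5, which cleaves glutathione conjugates, was the 1 of 10 glutathione supply genes called, at 0.31 ± 0.07 (adjusted p = 0.0465), and Tpmt, a thiopurine methyltransferase, the 1 of 10 other conjugation genes, at -0.34 ± 0.07 (adjusted p = 0.0299). Of 11 targets of the sensors Cyp1b1 and Hmox1 rose and Nqo1 fell. Hmox1, the heme-degrading oxygenase, averaged 1225.2 at 90 mg/kg against 310.4 with vehicle (0.66 ± 0.14, adjusted p = 0.0362). Hmox1 is also among the macrophage markers, which were higher in these spleens. Nqo1, detected on 1 of its 2 arrays at 90 mg/kg, averaged 6.1 against 41.4 (-0.46 ± 0.09, adjusted p = 0.0274).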

How the data were processed

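Per the labels' protocols, biotinylated cRNA from TRIzol-extracted RNA was hybridised to Illumina BeadChips. The authors deposited each probe's intensity, made in GenomeStudio per the submitters' processing notes, with no version. Sorted intensities of any 2 arrays differ by at most 1.0, and some lie below 0; the background and normalization steps behind this are not given in the sources used here. A second deposited table of non-normalized signals was not used, with 64 per-sample columns that could not be given to samples by name.

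Of the probes, 23978 had 1 gene symbol in the platform annotation, 0 several and 1719 none, and 23962 were matched to RefSeq by gene ID. Values under 0 were set to 0, 16 was added, and log2 was taken. A probe was detected above 1.645 times the noise of its array, taken from its values below 0. With limma 3.58.1 (R 4.3.3), models were fitted to the 8 arrays of an organ by dose, to the 8 vehicle arrays by organ and to all 32 for differences between organs, with Benjamini-Hochberg adjustment over all genes and calls at 0.05. The fit was tested on simulated data. Tables and figures used Python 3.11.15, pandas 2.3.3 and matplotlib 3.10.9.

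The members, gene lists, offset, threshold and tests were chosen with earlier results of these data known. Named genes were, per organ at 90 mg/kg, called members and then the largest changes among members whose arrays did not overlap vehicle, up to 10, with called members elsewhere, the brightest members of each vehicle organ, and the called or lowest-p genes of the lists. Some others were named after their values were seen. Alternatives changed the filter, offset, floor, probe choice, normalization, replicate block, arrays in the fit and organ shares. The testing of each probe apart and the subtraction of a liver share were added after seeing the data, as was the testis share in the trend and between organs.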

Additional observations from a re-analysis of the deposited data

Results flagged for a closer look

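The effect of 90 mg/kg in 1 organ minus its mean effect in the other 3 passed the test for 4 members (limma). In liver these were Ugt2b5, at 0.999 ± 0.222 (adjusted p = 0.0251), and Ugt2b34, at 1.12 ± 0.266 (adjusted p = 0.0362). In spleen they were Gsto2, at -1.507 ± 0.394 (adjusted p = 0.0306), and Gstm5, at -1.78 ± 0.479 (adjusted p = 0.0353). Neither Ugt2b gene was detected on any array outside liver, so for these 2 the contrast restates the liver change, which did not pass in liver alone (adjusted p = 0.301 for Ugt2b5 and 0.256 for Ugt2b34), and does not show a difference between organs. With the testis share subtracted Gsto2 gave -0.753 ± 0.396 (adjusted p = 0.359), and Gstm5 gave -1.731 ± 0.445 (adjusted p = 0.0336). That share is a median over testis-bright probes, and whether it holds for Gstm5 was not tested.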

How the results depend on the processing

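Counts of called members depended on the settings most in spleen. At 90 mg/kg, 2 members were called and 0 with no detection filter, a floor of 16 or the replicate block, but 4 (Gstm5, Gsto2, Gstt4, Sult1a1) with an offset of 50 or 1 fit over all 32 arrays. At 30 mg/kg the 2 calls became 0 with no filter, the floor, the replicate block or the testis share subtracted. At 60 mg/kg the 0 calls became 4 with an offset of 50, 3 with 1 fit over all arrays and 1 with the mean of all probes or cyclic loess. The trend had 2 calls (Gstm1 and Sult1a1) with the testis share subtracted. In liver at 90 mg/kg the 0 calls became 1 (Sult1d1) with an offset of 50 or the floor and 6 (Gsta1, Gsta2, Sult1c2, Sult5a1, Ugt2b34, Ugt2b5) with 1 fit over all arrays, and the trend had 1 with an offset of 50 (Ugt2b34) or the mean of all probes (Ugt1a6a). The median liver change was 0.222 with no filter, 0.28 with an offset of 50, 0.17 with the mean of all probes and 0.263 with 1 fit over all arrays. Lung at 90 mg/kg had 2 calls (Gstt4, Ugt2b1) with 1 fit over all arrays. The liver effect against the other organs had 6 calls with an offset of 50 and 4 with the floor or the mean of all probes, and the spleen effect 0 with the replicate block. The cause was not tested.

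The replicate numbers did not pair the arrays (r from -0.234 to 0.405 between the deviations of same-numbered arrays). Leaving out 1 array at a time gave 0 calls in spleen at 90 mg/kg, 0 to 2 at 30 mg/kg, 0 to 2 in the trend, and 0 in every other comparison of dose with vehicle. It gave 1 to 5 calls for the liver effect, 0 to 4 for spleen, 0 to 1 for lung and 0 for testis. Between vehicle organs it left 28 to 35 calls for liver, 19 to 25 for lung, 21 to 27 for spleen and 26 to 32 for testis. Of the 35 liver differences at 90 mg/kg, 8 changed sign when 1 array was left out (Gsta3, Gstm2, Gsto2, Gstp2, Gstp3, Gstt4, Ugt1a6a and Ugt2a3). Signal over background limits dim members such as Gstm3, Ugt2b5 and Sult2b1.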
